A study of Homo sapiens with 12 samples.

Results

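The cytosolic ribosomal protein genes encode the protein subunits of the large and small ribosomal subunits, and here their promoters were examined for the binding of pS727-STAT3 and BCL9 in a breast ductal carcinoma in situ (DCIS) cell line. Members were the protein-coding genes on hg19 autosomes whose symbol is RPL or RPS followed by a number and an optional letter or X, Y or L suffix, together with RPLP0, RPLP1, RPLP2 and RPSA, and without the ribosomal S6 kinases and the mitochondrial ribosomal proteins. The rule gave 81 of 18886 autosomal protein-coding genes, of which 47 encode large-subunit proteins, 31 small-subunit proteins and 3 proteins of the P stalk. A further 4 genes on chromosome X and 2 on chromosome Y were left out.

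Ribosomal protein genes are among the most highly transcribed genes of a growing cell, and their products are made in matched amounts. Many of their mRNAs start with a C followed by a run of pyrimidines (the terminal oligopyrimidine, or TOP, motif), which ties their translation to growth signalling through mTOR. STAT3 is a transcription factor that binds DNA itself, and phosphorylation of the serine recognised here modifies its transcriptional and mitochondrial activity. BCL9 is a co-activator that reaches DNA through partners such as β-catenin and has no DNA-binding domain of its own.

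ChIP-exo, in which an exonuclease trims the immunoprecipitated DNA to the edge of the bound protein, was run on DCIS.com cells, a basal-type breast cell line, grown as bulk cultures and labelled as biological replicates. The groups were BCL9-KD cells with the BCL9 antibody (n = 2), NS (non-silencing) control cells with the BCL9 antibody (n = 3), BCL9-KD cells with the pS727-STAT3 (pSTAT3) antibody (n = 2), NS control cells with the pSTAT3 antibody (n = 3) and NS control cells with a CTCF antibody as positive control (n = 1). The KD cells carried a lentiviral short hairpin RNA against BCL9 and the controls a non-silencing vector in the same line, so every result is for 1 cell line and 1 hairpin, and the amount of BCL9 protein left in the KD cells is not given by these lists. An IgG library was not analysed here. Each list holds peak pairs (a left and a right exonuclease border) with a signal, and each signal was a whole multiple of a constant of its library, so the number of tags behind a pair could be read.

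The lists differed in length far more than the groups did. They held 95586 and 336493 peak pairs in the BCL9-KD cells with the BCL9 antibody, against 28690, 24728 and 148755 in the NS control cells. The pSTAT3 lists held 415624 and 493174 pairs in the BCL9-KD cells, against 118933, 98665 and 374089 in the NS control cells, and the CTCF list held 457119. Total read depth was not recorded in the lists. Both KD groups therefore had longer lists than the first and second control libraries, and the effect of the knockdown on any count from the full lists cannot be told apart from list length. Of 8 basal and epithelial marker genes, a mean of 75.0% had a pair near the start site in BCL9-KD cells and 54.2% in NS control cells with the BCL9 antibody, whereas 9 markers of other cell types had 22.2% and 18.5%. Over all genes the means were 41.0% and 17.3%, so in NS control cells the markers of other cell types were not below the background. With the pSTAT3 antibody they had 27.8% (BCL9-KD) and 22.2% (NS control), against 58.0% and 33.9% of all genes. Among the strongest 24728 pairs of each pSTAT3 list they had 22.2% and 14.8%, against 2.33% and 3.51% of all genes.

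The sequences of 7 promoters are printed because the strongest, the most recurrent and the empty members are read against them. All run 5′ to 3′ on the strand of the gene and end 20 bases downstream of the first base of the annotated canonical transcript (hg19, read from GRCh37). RPL22 lies at chr1:6259636-6259775 (minus strand), RPLP1 at chr15:69745037-69745176 (plus strand), RPL26 at chr17:8286492-8286631 (minus strand) and RPS18 at chr6:33239732-33239871 (plus strand), and in these the capitals mark the pyrimidine run across the transcription start site (TSS). RPL4 at chr15:66797174-66797313 (minus strand) starts with an A and has no such run. In RPL24 at chr3:101405543-101405812 (minus strand) the capitals mark the AP-1 string, and in RPL36 at chr19:5690186-5690325 (plus strand) they mark a CTCF-like string. RPL26, RPL36 and RPS18 were chosen after their values were seen.
RPL22: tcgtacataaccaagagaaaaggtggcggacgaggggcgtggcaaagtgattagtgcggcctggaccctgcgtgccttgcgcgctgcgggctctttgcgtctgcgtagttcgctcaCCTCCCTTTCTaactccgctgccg
RPL24: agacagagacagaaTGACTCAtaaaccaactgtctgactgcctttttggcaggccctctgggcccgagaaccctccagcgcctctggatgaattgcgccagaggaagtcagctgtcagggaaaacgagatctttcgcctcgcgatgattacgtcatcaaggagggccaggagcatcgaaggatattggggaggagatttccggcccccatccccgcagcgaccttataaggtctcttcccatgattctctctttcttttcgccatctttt
RPL4: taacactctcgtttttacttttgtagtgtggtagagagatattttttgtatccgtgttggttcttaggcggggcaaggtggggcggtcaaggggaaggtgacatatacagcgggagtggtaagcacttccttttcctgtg
RPLP1: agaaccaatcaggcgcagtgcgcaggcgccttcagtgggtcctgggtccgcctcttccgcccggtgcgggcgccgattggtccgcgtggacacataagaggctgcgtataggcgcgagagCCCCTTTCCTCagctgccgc
RPL36: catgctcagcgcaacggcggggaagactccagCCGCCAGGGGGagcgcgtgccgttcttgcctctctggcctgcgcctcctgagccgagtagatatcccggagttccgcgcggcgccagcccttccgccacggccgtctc
RPL26: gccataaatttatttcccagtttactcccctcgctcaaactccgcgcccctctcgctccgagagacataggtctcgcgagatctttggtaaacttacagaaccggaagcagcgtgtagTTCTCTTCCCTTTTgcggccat
RPS18: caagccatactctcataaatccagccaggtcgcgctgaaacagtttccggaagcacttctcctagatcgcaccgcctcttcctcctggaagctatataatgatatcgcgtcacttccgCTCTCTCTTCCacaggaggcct

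Of the sequence features searched, the TOP-like start was the one that set the members furthest apart from other genes. A C at the annotated TSS followed by at least 4 pyrimidines was present in 56 of 81 members (69.1%) and in 4.58% of all 18886 genes. The median pyrimidine run across the TSS was 11 bases in the members and 0 in all genes. Members with the TOP-like start had a pair in a mean of 2.16 of 5 BCL9 libraries and 3.23 of 5 pSTAT3 libraries, and the 25 members without it in 1.92 and 2.88.

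Ribosomal protein promoters carried a peak pair more often than the average promoter in every library. A gene was counted when the midpoint of a pair lay within 1 kb of any of its annotated TSSs. With the BCL9 antibody, 40 members (49.4%, against 27.7% of all genes) and 60 members (74.1%, against 54.3%) had a pair in the BCL9-KD libraries. In the NS control libraries 12 members (14.8%, against 10.2% of all genes), 11 members (13.6%, against 7.95%) and 46 members (56.8%, against 33.7%) had one. Counting by library, the third control library lay between the KD libraries, so the groups overlapped.

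For pSTAT3, 69 members (85.2%, against 56.1% of all genes) and 66 members (81.5%, against 59.9%) had a pair in the BCL9-KD libraries. In the NS control libraries 29 members (35.8%, against 25.4% of all genes), 26 members (32.1%, against 20.9%) and 63 members (77.8%, against 55.3%) had one. The KD libraries were above all 3 control libraries for the members, but the third control library came close to them, and it also had the longest control list. In the CTCF library 58 members (71.6%, against 52.7% of all genes) had a pair, so a share above the background was not particular to the BCL9 and pSTAT3 antibodies. The ratio of the members' share to that of all genes was 1.36 to 1.79 over the BCL9 libraries and 1.36 to 1.54 over the pSTAT3 libraries. As group means, 61.7% ± 17.5 (SD, n = 2) of members had a pair in the BCL9-KD cells and 28.4% ± 24.6 (SD, n = 3) in the NS control cells with the BCL9 antibody.

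**Figure D1:**
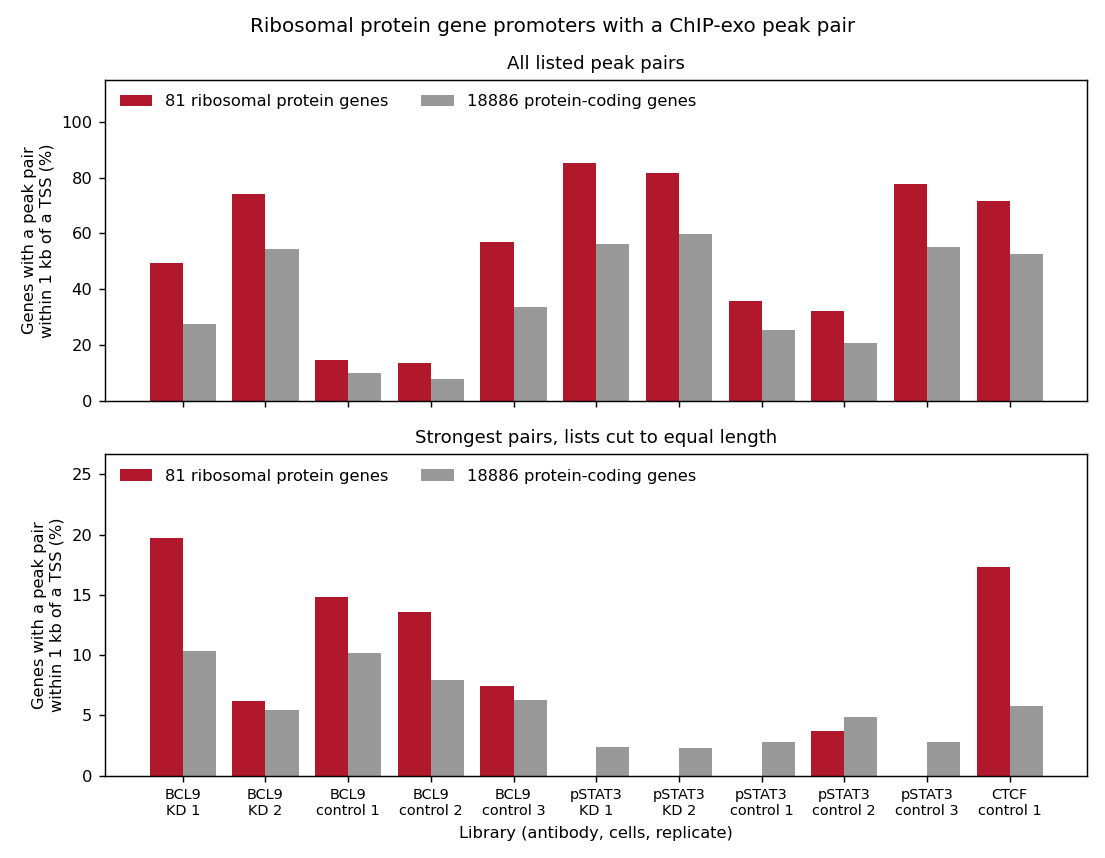
Bars give the percentage of genes with a peak pair within 1 kb of a TSS in each of the 11 libraries, for the 81 ribosomal protein genes (red) and for all 18886 autosomal protein-coding genes (grey), over all listed pairs (top) and over lists cut to equal length (bottom). Over all pairs the red bar is the taller one in every library, and at equal length it is the shorter one in every pSTAT3 library, with 0% of members in 4 of the 5.

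At equal list length the members' share was above the background in 3 of 5 BCL9 libraries and in the CTCF library, close to it in the other 2 BCL9 libraries, and below it in all 5 pSTAT3 libraries. When each list was cut to its strongest 24728 pairs (the length of the shortest list, ties handled by their mean rank), 16 members (19.8%, against 10.4% of all genes) and 5 members (6.17%, against 5.41%) had a pair in the BCL9-KD libraries. In the NS control libraries with the BCL9 antibody the counts were 12 (14.8%, against 10.2%), 11 (13.6%, against 7.95%) and 6 (7.41%, against 6.29%). With the pSTAT3 antibody no member had such a pair in either BCL9-KD library (against 2.39% and 2.27% of all genes). In the NS control libraries with the pSTAT3 antibody the counts were 0 (against 2.83%), 3 (3.70%, against 4.88%) and 0 (against 2.82%). The 3 members were RPL26, RPL27A and RPL36, with 9 tags each. In the CTCF library 14 members (17.3%, against 5.79% of all genes) had a strong pair.

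The strongest pair at a member had a median of 4 to 10 tags in the 10 BCL9 and pSTAT3 libraries, against 5 to 10 at all genes, and the medians were equal in 7 libraries and 1 tag lower at the members in the other 3. No member was near the top of a list of genes ranked by their strongest pair. The best placed were RPL37, ranked 200 with 25 tags in the second BCL9-KD library with the BCL9 antibody, and RPL4, ranked 242 with 21 tags in the first. In the pSTAT3 libraries the best placed was RPL26L1, ranked 429 with 23 tags in the second BCL9-KD library. By contrast RPS29 ranked 21 with 212 tags in the CTCF library.

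**Figure D2:**
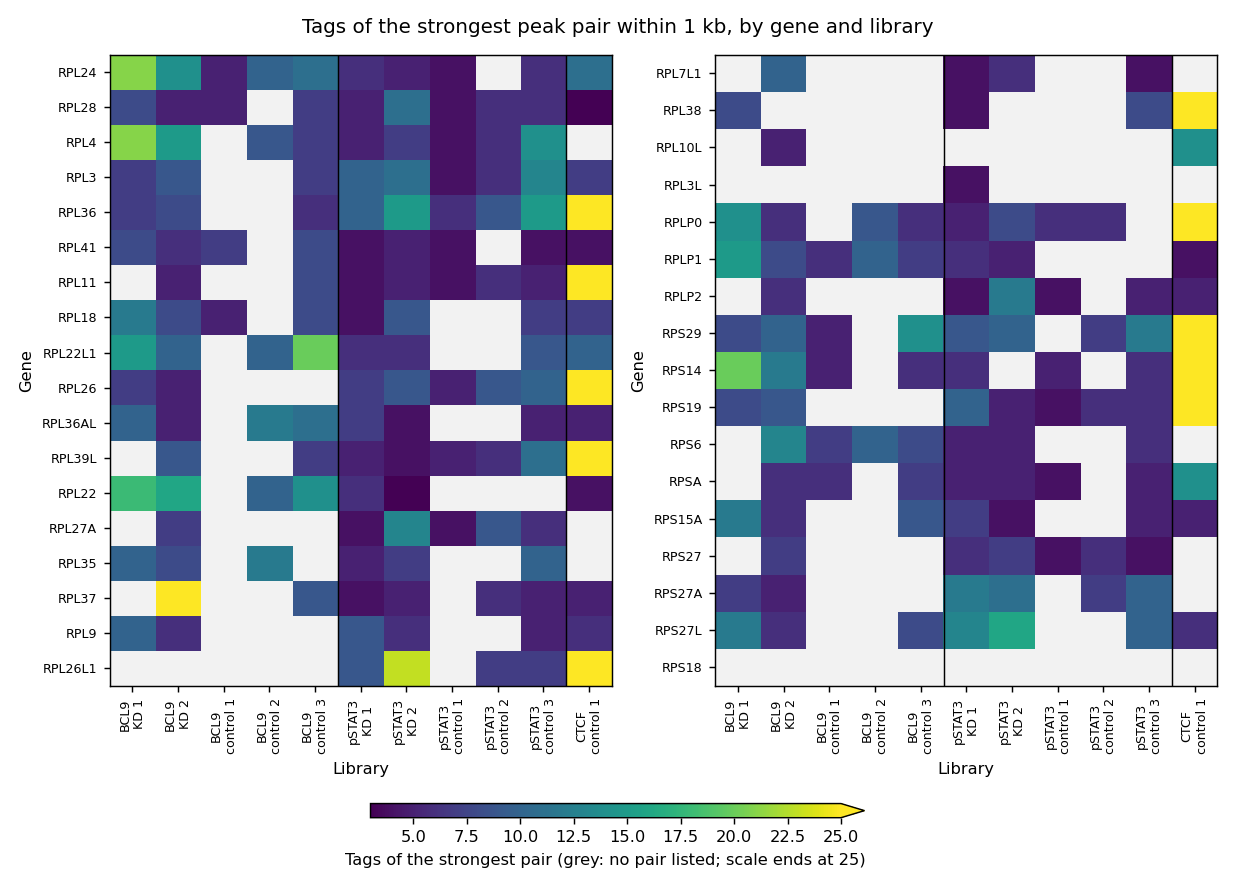
Colour gives the number of tags of the strongest peak pair within 1 kb of a TSS for each of 35 ribosomal protein genes named in the text (rows, large subunit first, then P stalk and small subunit) in each of the 11 libraries (columns); grey means that no pair was listed and the colour scale ends at 25 tags. RPL24 and RPLP1 have a pair in all 5 BCL9 libraries, RPS18 has none in any library, and the CTCF column holds values far above the others, up to 212 tags at RPS29.

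Among large-subunit proteins, RPL22, which binds RNA outside the ribosome as well, had the highest mean score of all members. Its strongest pair had 18 and 16 tags in the BCL9-KD libraries with the BCL9 antibody, against 0, 10 and 14 in the NS control libraries. These pairs lay 86 to 248 bp upstream of a TSS. Its strongest pSTAT3 pair had 6 and 3 tags in the BCL9-KD libraries and none was listed in the 3 NS control libraries. The BCL9 values of KD and control cells did not overlap, but the tags of 1 pair cannot be compared between libraries of different depth, and the rank-based test below did not call the gene.

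RPL22L1, the paralogue that can take the place of RPL22 in the ribosome, also had one of the highest mean scores. With the BCL9 antibody its strongest pair had 15 and 10 tags in the BCL9-KD libraries, against 0, 10 and 20 in the NS control libraries. With the pSTAT3 antibody it had 6 and 6 tags in the BCL9-KD libraries, against 0, 0 and 9 in the NS control libraries. The groups overlapped for both antibodies.

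RPL24, a protein at the interface of the subunits, had a pair in all 5 BCL9 libraries. Its strongest pair had 21 and 14 tags in the BCL9-KD libraries, against 5, 10 and 11 in the NS control libraries. Its strongest pSTAT3 pair had 6 and 5 tags in the BCL9-KD libraries, against 4, 0 and 6 in the NS control libraries. It was the only member whose promoter (250 bases before to 50 after the TSS) held the AP-1 string TGANTCA, which starts 236 bases before the TSS in the sequence shown above. The strongest BCL9 pairs lay 86 to 108 bp upstream of a TSS in 3 libraries and 99 and 157 bp downstream in the other 2, none of them on that string. For pSTAT3, the strongest pair of the first NS control library, of 4 tags, lay 238 bp upstream of the nearest annotated TSS. The string was placed from the canonical TSS, which need not be the same start, so this pair was not shown to lie on the string.

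RPL4, which lines the exit tunnel of the nascent chain, had 21 and 15 tags in the BCL9-KD libraries with the BCL9 antibody, against 0, 9 and 7 in the NS control libraries. With the pSTAT3 antibody it had 5 and 7 tags in the BCL9-KD libraries, against 4, 6 and 14 in the NS control libraries, and so had a pair in all 5, in 1 control library at another annotated start of the gene. ZWILCH, a kinetochore gene, starts within 1 kb of RPL4, and a pair in the region could not be assigned to either gene. The RPL4 promoter, like that of RPL28, held the STAT string TTCNNNGAA.

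RPLP1, an acidic protein of the stalk that recruits translation factors, was the other member with a pair in all 5 BCL9 libraries. Its strongest pair had 15 and 8 tags in the BCL9-KD libraries, against 6, 10 and 7 in the NS control libraries. Its strongest pSTAT3 pair had 6 and 5 tags in the BCL9-KD libraries, and none was listed in the 3 NS control libraries. The 3 P stalk genes had a pair in 33.3% to 100% of cases per library, a range too wide to read with so few genes.

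Among small-subunit proteins, RPS6, the substrate of the S6 kinases, and RPS14 had the highest mean scores. With the BCL9 antibody the strongest RPS6 pair had 0 and 13 tags in the BCL9-KD libraries, against 7, 10 and 8 in the NS control libraries. The strongest RPS14 pair had 20 and 12 tags in the BCL9-KD libraries, against 5, 0 and 6 in the NS control libraries. RPS14 also had a CTCF pair of 185 tags 274 bp upstream of a TSS, and the part of CTCF in its other values was not tested.

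RPL37, RPL36AL, RPL41 and RPL35 were also among the members with the highest mean scores, and each rested on a few libraries. RPL37 had 0 and 25 tags in the BCL9-KD libraries with the BCL9 antibody, against 0, 0 and 9 in the NS control libraries. RPL35 had 10 and 8 tags in the BCL9-KD libraries, against 0, 12 and 0 in the NS control libraries. RPL41, the smallest ribosomal protein, had 8 and 6 tags in the BCL9-KD libraries, against 7, 0 and 8 in the NS control libraries. RPL36AL shares its start region with MGAT2 and RPL35 with ARPC5L, which encode a glycosyltransferase and a subunit of the Arp2/3 complex.

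The strength of a pair was compared between antibodies as a score per gene, log2 of 24728 over the rank of its strongest pair within 1 kb, or 0 where the gene had none among the strongest 24728. Across 2179 genes with a score in at least 2 of the 10 libraries, limma with Benjamini-Hochberg adjustment called 192 genes (8.81%) higher and 53 (2.43%) lower with the BCL9 antibody than with the pSTAT3 antibody. Of the 81 members 13 passed the filter and 0 were called, with 0 at an unadjusted p under 0.05. All 13 had a score of 0 in all 5 pSTAT3 libraries and so passed through the BCL9 libraries alone, which fixes the sign of their differences.

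The 6 members with the largest fitted differences were RPL22, RPL24, RPL22L1, RPL4, RPLP1 and RPS6. The difference for RPL22 was 0.90 (SE 0.46, limma adjusted p = 0.277), and that for RPS6 was 0.53 (SE 0.37, limma adjusted p = 0.298). Among the smallest were those of RPL18, RPS29, RPLP0, RPL35 and RPL36AL, starting at 0.17 (SE 0.12, limma adjusted p = 0.298) for RPL18. None of the 13 passed the threshold of an adjusted p of 0.05.

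**Figure D3:**
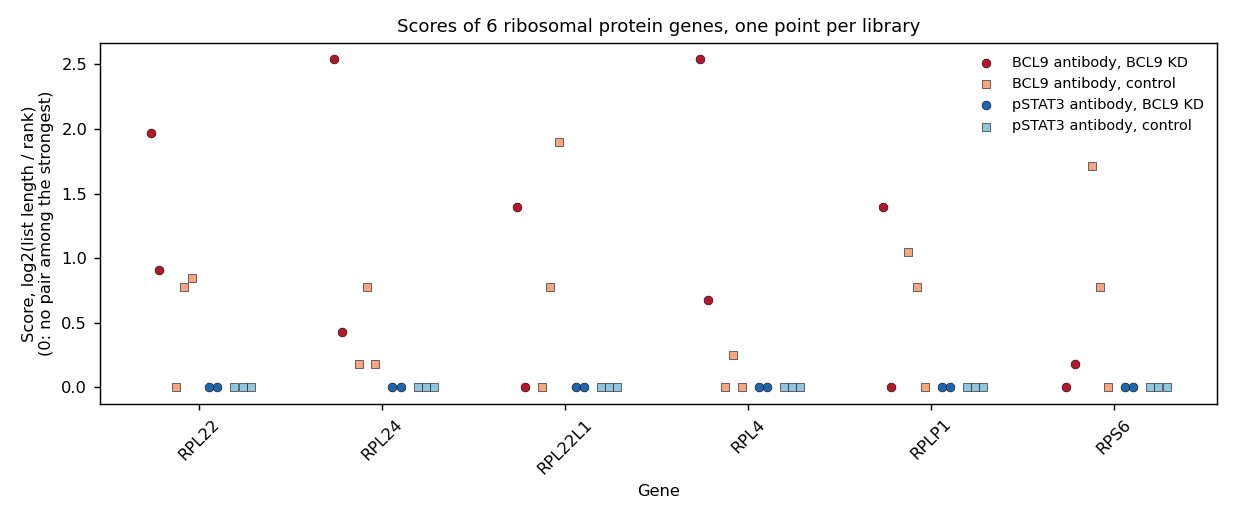
Points give the score (vertical axis, log2 of list length over rank, 0 where no pair was among the strongest 24728) of the 6 ribosomal protein genes with the largest fitted BCL9 minus pSTAT3 difference in each of 10 libraries, in the order of that difference; circles are BCL9-KD and squares NS control cells, with the BCL9 antibody in red and the pSTAT3 antibody in blue. All pSTAT3 points lie at 0, and the BCL9 points of KD and control cells overlap in 4 of the 6 genes, the exceptions being RPL22 and RPL4.

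BCL9 knockdown was not followed by a called change at any ribosomal protein promoter with the BCL9 antibody. Over 1699 genes tested, limma with Benjamini-Hochberg adjustment called 0 higher (0%) and 0 lower (0%), with 38 genes at an unadjusted p under 0.05. Of the 81 members 13 passed the filter, 0 were called and 0 were under 0.05 unadjusted. The largest difference, for RPL4, was 1.52 (SE 0.97, limma adjusted p = 0.759), with scores of 2.54 and 0.68 in the BCL9-KD libraries, against 0, 0.25 and 0 in the NS control libraries. RPS14 followed with 1.12 (SE 0.81, limma adjusted p = 0.759) and RPL24 with 1.10 (SE 1.02, limma adjusted p = 0.759). All 3 moved with the KD library left out. Without the first KD library RPL4 had 0.59 and RPL24 0.05, and without the second RPL4 had 2.46, RPS14 2.30 and RPL24 2.16. RPS14 did not pass the filter without the first. The most negative was RPS6 at -0.74 (SE 0.84, limma adjusted p = 0.79), which was -0.30 without the first control library and -1.15 without the third control library.

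For pSTAT3, 627 genes were tested for the knockdown, 1 was called higher (0.159%) and 0 lower (0%), and 0 members passed the filter. The members' pSTAT3 pairs could be tested only on longer lists. With each list cut to 98665 pairs, 29 members were among 4007 genes tested by limma with Benjamini-Hochberg adjustment, and 0 of them were called, with 0 at an unadjusted p under 0.05. On that scale RPL26 had a difference of -1.13 (SE 0.85, adjusted p = 0.662) and RPL36 of -1.06 (SE 0.90, adjusted p = 0.662). At the other end RPS27L, a paralogue of RPS27 that p53 induces, had 0.63 (SE 0.73, adjusted p = 0.701).

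Because these standard errors are large, the tests leave room for sizeable differences. Whether the knockdown difference depended on the antibody was tested as an interaction over the 10 libraries. Of 2179 genes 0 were called by limma with Benjamini-Hochberg adjustment (78 at an unadjusted p under 0.05). For the members this test adds nothing, since the 13 tested had a score of 0 in all 5 pSTAT3 libraries.

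Recurrence was counted over the 5 libraries of each antibody. With the BCL9 antibody 2 members (2.47%, against 2.83% of all genes) had a pair in all 5 libraries, and 9 (11.1%, against 35.4%) in none. With the pSTAT3 antibody 12 members (14.8%, against 9.85% of all genes) had a pair in all 5 libraries, and 2 (2.47%, against 22.0%) in none. The members with all 5 pSTAT3 libraries included RPL11, which binds MDM2 when ribosome assembly fails, RPL3, RPL4, RPL26, RPL36 and the small-subunit genes RPS19 and RPS27. No member had a pair in all 5 libraries of both antibodies, against 1.42% of all genes.

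RPL36 and RPL26 are given in full because they had pSTAT3 pairs in all 5 libraries and strong CTCF pairs. The strongest RPL36 pair had 10 and 15 tags in the BCL9-KD libraries with the pSTAT3 antibody, against 6, 9 and 15 in the NS control libraries, and lay 113 to 178 bp upstream of the TSS each time. The strongest RPL26 pair had 7 and 9 tags in the BCL9-KD libraries, against 5, 9 and 10 in the NS control libraries. With the BCL9 antibody RPL26 had 7 and 5 tags in the BCL9-KD libraries and no pair in the 3 NS control libraries.

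The midpoints of these pairs could be set against CTCF. RPL36 had a CTCF pair of 104 tags 105 bp upstream of a TSS, close to the string CCGCCAGGGGG that begins 88 bases before the TSS in the promoter shown above. The midpoints of the strongest RPL36 pSTAT3 pairs lay 8 to 73 bp from that of the CTCF pair. RPL26 had a CTCF pair of 114 tags 127 bp upstream, and its strongest pSTAT3 pairs lay 38 to 1232 bp from it. The form CC, any 3 bases, then AGGGGG, chosen after these values were seen, occurred in the promoters of 7 members (8.64%) and of 4.05% of all genes. The part of CTCF in the pSTAT3 pairs of these genes was not tested.

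The highest single tag numbers at ribosomal protein promoters were in the CTCF library, although tags cannot be compared between libraries of different depth. The median there was 7 tags both at members and at all genes, so the high values belonged to some members only. The 14 members with a strong CTCF pair had 64 to 212 tags, led by RPS29, RPS14, RPL38 with 168 and RPLP0 with 140, and all 14 pairs lay upstream of a TSS. Windows of 100 bp around the BCL9 and pSTAT3 pairs at members overlapped a CTCF window in 15.8% to 27.9% of cases per library, against 14.4% to 18.9% for pairs at all genes. For windows of strong CTCF pairs the overlap was 3.50% to 15.2% at members in the pSTAT3 libraries, against 1.19% to 1.89% at all genes. In the BCL9 libraries it was 0.0% to 5.23%, against 0.663% to 1.36%. These rest on at most 8 member windows per library. The part of CTCF in the shares was not tested. When windows that overlapped any CTCF window were set aside, the members' share stayed above that of all genes in all 10 libraries. It was 44.4% and 66.7% in the BCL9-KD libraries with the BCL9 antibody (all genes 24.7% and 51.0%). In the NS control libraries with the BCL9 antibody it was 13.6%, 11.1% and 48.1% (all genes 8.82%, 6.83% and 30.1%). The pSTAT3 shares were 72.8% and 74.1% in the BCL9-KD libraries (all genes 51.9% and 55.9%), and 29.6%, 24.7% and 67.9% in the NS control libraries (all genes 22.1%, 18.4% and 51.0%).

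Neighbouring genes and the number of annotated starts also bear on the shares. In all 21 members had a TSS of another protein-coding gene within 1 kb of one of theirs, and members had a median of 5 annotated TSSs, against 3 for all genes. Among the 60 members without such a neighbour, 46.7% and 73.3% had a pair in the BCL9-KD libraries with the BCL9 antibody (genes without a neighbour 25.0% and 50.8%). With only 1 TSS per gene, a mean of 57.4% of members and 33.7% of all genes had a pair in the BCL9-KD cells, and 27.2% of members and 13.7% of all genes in the NS control cells, with the BCL9 antibody.

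By group mean, pairs at the members clustered at the TSS more than at all genes, but not in every library. With the BCL9 antibody 41.9% (BCL9-KD) and 47.5% (NS control) of member pairs lay within 200 bp, against 34.0% and 39.6% at all genes. For pSTAT3 the means were 46.7% and 46.4%, against 35.9% and 36.7%. The second NS control library with the BCL9 antibody went the other way, at 40.0% against 41.0%. Within 200 bp of the canonical TSS there were 47.5 pairs per 100 members in BCL9-KD cells with the BCL9 antibody, against 23.9 per 100 genes over all genes, and 22.6 per 100 members, against 9.43, in NS control cells. The pSTAT3 pairs numbered 78.4 per 100 members in BCL9-KD cells, against 42.6 per 100 genes, and 36.6 per 100 members, against 20.1, in NS control cells. From 500 to 1000 bp the values were closer, at 32.7 per 100 members against 26.2 per 100 genes with the BCL9 antibody and 48.1 against 40.7 with the pSTAT3 antibody in BCL9-KD cells. CTCF pairs at members lay upstream in 83.4% of cases, against 62.4% at all genes.

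**Figure D4:**
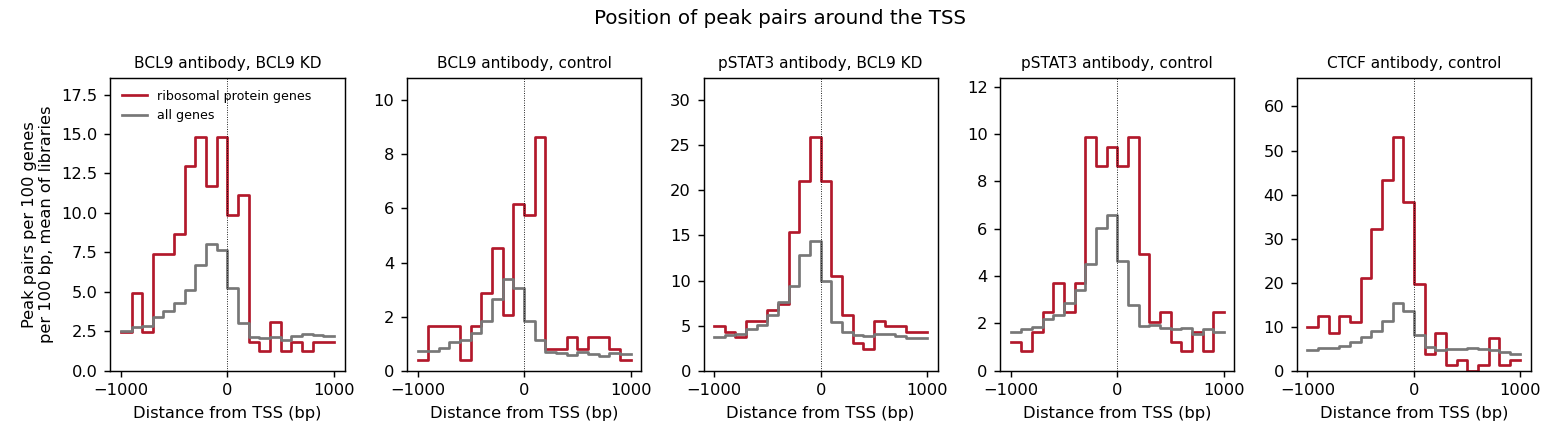
Lines give the number of peak pairs per 100 genes in each 100 bp bin from 1000 bp upstream (negative) to 1000 bp downstream of the canonical TSS, as the mean over the libraries of each group, for the ribosomal protein genes (red) and all genes (grey); the vertical scales differ between panels. The red line is above the grey one in the 100 bp on either side of the TSS in all 5 panels and lies close to it beyond 500 bp downstream.

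Of the member pairs, 28.8% to 56.8% per library lay in an exon for the BCL9 and pSTAT3 antibodies, and the rest in introns or outside the gene. Introns of 27 members host 58 small nucleolar RNAs, and at most 1 pair per library lay on one of these.

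Other promoter strings differed from the genome as follows. The ETS string CCGGAAGT was in 13 member promoters (16.0%, against 6.19% of all genes), and the YY1 string AAGATGG was in 15 (18.5%, against 6.36%). The AP-1 string was in 1 (1.23%, against 5.37%), and the STAT string was in 3 (3.70%, against 6.54%). The SP string GGGCGG was in 47 (58.0%, against 61.7%). Members with the ETS string had a pair in a mean of 1.54 of 5 BCL9 libraries and members without it in 2.19, but in 3.15 and 3.12 of 5 pSTAT3 libraries. Members with the YY1 string had one in a mean of 2.40 BCL9 libraries and members without it in 2.02. All strings were searched on both strands, and a match is only a match of letters.

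The 100 bp windows of the pairs themselves were searched as well. AP-1 strings were in 0.58% of 345 BCL9 windows at members, against 5.11% of windows at all genes, and in 1.65% of 544 pSTAT3 windows at members, against 9.94%. YY1 strings were in 4.64% of BCL9 windows at members, against 1.79%, and in 3.49% of pSTAT3 windows, against 1.67%. ETS strings were in 3.13% of pSTAT3 windows at members, against 0.928%. The windows come from libraries that share promoters, so they are not independent.

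Overlap of BCL9 and pSTAT3 at the same place was counted in each condition. A region counted when windows of both antibodies, each present in both BCL9-KD libraries or in at least 2 of 3 NS control libraries, overlapped by at least 1 bp. In BCL9-KD cells 7 members (8.64%, against 5.41% of all genes) had such a region, and in NS control cells 1 member (1.23%, against 2.58%) did. The 7 were RPL3, RPL4, RPL9, RPL36, RPL36AL, RPS15A and RPS27A, the last encoding a fusion with ubiquitin, and the 1 was RPL24; these names were read after the counts were known. Separately, in BCL9-KD cells 34 members (42.0%, against 26.6% of all genes) had a recurrent pSTAT3 region and 18 (22.2%, against 12.6%) a recurrent BCL9 region. In NS control cells 17 members (21.0%, against 16.8% of all genes) had a recurrent pSTAT3 region and 8 (9.88%, against 5.99%) a recurrent BCL9 region. All these counts come from the full lists, so knockdown and list length cannot be told apart in them.

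At equal list length no member had a region of both antibodies in either condition. Over all genes the shares were 0.445% in BCL9-KD cells and 0.646% in NS control cells, so this does not set the members apart. The control count of 1 became 0 without the first or the third control library of either antibody.

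The 8 paralogues of core proteins showed a mean share of 56.3% in BCL9-KD cells and 25.0% in NS control cells with the BCL9 antibody, and the 73 other members 62.3% and 28.8%. Over all genes these means were 41.0% and 17.3%. By library the paralogues' share ranged from 37.5% to 75.0% in BCL9-KD cells and from 0.0% to 50.0% in NS control cells. RPL26L1 had no BCL9 pair in any library but had 9 and 23 pSTAT3 tags in the BCL9-KD libraries, against 0, 7 and 7 in the NS control libraries, beside a CTCF pair of 71 tags. RPS27L had 13 and 16 pSTAT3 tags in the BCL9-KD libraries, against 0, 0 and 10 in the NS control libraries. RPL39L, expressed mainly in the testis, had a pSTAT3 pair in all 5 libraries, with 5 and 4 tags in the BCL9-KD libraries, against 5, 6 and 11 in the NS control libraries, and a CTCF pair of 104 tags. The tissue-restricted RPL3L and RPL10L had 1 pair each in the 10 libraries, of 4 and 5 tags, and RPL7L1 had 4 to 10 tags in 4 libraries.

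RPS18, which lies in the MHC region of chromosome 6, was the only member with no pair in any of the 11 libraries, although it has the TOP-like start shown above. Over the 10 BCL9 and pSTAT3 libraries 1.23% of members had no pair, against 17.8% of all genes. The 131 genes within 2 Mb of RPS18 (a region chosen after RPS18 was seen without a pair) also had few pairs. In the BCL9-KD libraries with the BCL9 antibody 5.34% and 11.5% of them had a pair, and in the NS control libraries 0.763%, 0.763% and 6.11%. With the pSTAT3 antibody 19.1% and 26.0% had a pair in the BCL9-KD libraries and 3.05%, 3.05% and 16.0% in the NS control libraries. Peak pairs per Mb were below the genome's value in all 10 libraries but not in the CTCF library, where they were 164 against 151. By share of genes the CTCF library was also low there, with a pair at 29.0% of the 131 genes, against 52.7% of all genes.

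Over all listed pairs, other gene groups chosen for comparison had shares close to those of the members. With the BCL9 antibody a mean of 65.9% of 22 cytosolic translation partners (elongation and initiation factors and related genes) had a pair in BCL9-KD cells and 22.7% in NS control cells. For 31 proteasome subunits the means were 62.9% in BCL9-KD cells and 23.7% in NS control cells, and for 78 mitochondrial ribosomal proteins 52.6% in BCL9-KD cells and 23.5% in NS control cells. In the pSTAT3 libraries the means were 88.6%, 87.1% and 77.6% for these lists in BCL9-KD cells, against 54.5%, 52.7% and 43.2% in NS control cells. The members had 83.3% ± 2.62 (SD, n = 2) in BCL9-KD cells and 48.6% ± 25.4 (SD, n = 3) in NS control cells with the pSTAT3 antibody. The excess over all genes was not shown to be particular to ribosomal protein genes. At equal list length with the pSTAT3 antibody the members had 0.0% (BCL9-KD) and 1.23% (NS control), against 2.33% and 3.51% of all genes. Mitochondrial ribosomal proteins had 0.641% and 0.427%, proteasome subunits 1.61% and 0.0%, and translation partners 2.27% and 4.55%. A low share of strong pSTAT3 pairs was therefore not particular to the members either.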

How the data were processed

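ChIP-exo peak lists of 11 libraries were used, each holding peak pairs with coordinates on hg19 and a signal. The authors deposited 1 list per library. The program tag in the deposited lists names a peak-pairing tool (cwpair), whereas the study's methods name ChExMix. The submitters' processing notes name bcl2fastq and hg19. Neither the aligner nor the treatment of multi-mapping reads is stated: both are not given in the sources used here. Each deposited signal, a tag count times a constant, was divided by its step in each library to give whole tags (within 0.01 of a whole number for all pairs). An IgG library was not analysed here.

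Gene models were protein-coding transcripts of GENCODE v44lift37, with 75590 TSSs. The members and lists were chosen with earlier results of these data known. Scores were fitted with limma 3.58.1 (R 4.3.3, empirical Bayes with trend) and adjusted by Benjamini-Hochberg over all genes tested. The antibody fit took all 10 libraries with condition as covariate, and each knockdown fit took 1 antibody. Shares are descriptions without a test. The fits were tested on simulated scores. Libraries are labelled as biological replicates but 2 or 3 a group limit precision, and p-values measure the spread between these libraries. Replicate numbers did not pair the libraries. Named members were the 12 with the highest mean score, called members (none), the 6 largest and 6 smallest antibody differences, the paralogues and members without a pair. Others were chosen after their values were seen. Alternatives left out each library, used the replicate block, 12364 pairs, 1 TSS per gene, no filter, a reach of 250 bp, at least 9 tags or a 50 bp overlap. Shares without CTCF windows or neighbouring genes were added after the data were seen. Some members that these rules name are not reported here.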

Additional observations from a re-analysis of the deposited data

How the results depend on the processing

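No ribosomal protein gene was called in any of the 3 fits under any alternative run, but in the knockdown fit with the pSTAT3 antibody members were tested only without the filter (3) and on lists of 98665 pairs (29), so elsewhere that fit says nothing about them. Of the members' fitted differences under alternatives, 261 kept their direction. These include all those between antibodies, whose sign the pSTAT3 scores of 0 fix. Only the knockdown differences with the BCL9 antibody could turn, and 6 of them did. The 6 that turned were those of RPL22L1 (-0.19 in all libraries, 0.50 without the second KD library, 0.31 without the third control library and 0.31 with the replicate block) and RPLP1 (0.09 in all libraries, -0.61 without the first KD library, -0.21 without the third control library and -0.21 with the replicate block). With 1 library left out they spanned -0.89 to 0.50 and -0.61 to 0.79. The cause was not tested.

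Counts of all genes called moved more. In the antibody fit 245 genes were called, 126 with lists of 12364 pairs, 132 without the filter and 158 within 250 bp, and 184 to 236 with 1 library left out. The knockdown fit with the BCL9 antibody called 0, but 1 with 1 TSS per gene, 1 within 250 bp and 0 to 4 with 1 library left out (4 without the second KD library). With the pSTAT3 antibody it called 1, but 0 with 1 TSS per gene, 0 without the filter, 0 within 250 bp and 0 to 1 with 1 library left out.

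The replicate block gave 223 calls in the antibody fit, 0 in the knockdown fit with the BCL9 antibody and 5 with the pSTAT3 antibody. Same-numbered libraries did not deviate together (correlations of -0.05 to 0.07), so the numbers were not treated as pairs.

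The members' mean share fell with stricter settings: at least 9 tags gave 22.2% (KD, BCL9 antibody; all genes 14.4%), 10.7% (control, BCL9; all genes 6.63%), 21.6% (KD, pSTAT3; all genes 14.1%), 7.82% (control, pSTAT3; all genes 7.25%) and 32.1% (CTCF; all genes 23.0%), with 0 members in the first control library of each antibody. Equal list length gave 13.0% (KD, BCL9; all genes 7.88%), 0.0% (KD, pSTAT3; all genes 2.33%), 1.23% (control, pSTAT3; all genes 3.51%) and 17.3% (CTCF; all genes 5.79%). A reach of 250 bp gave 40.7% (KD, BCL9, all genes 24.3%), 61.1% (KD, pSTAT3, all genes 38.8%) and 46.9% (CTCF, all genes 30.0%). With 1 TSS per gene the share was 79.6% (KD, pSTAT3, all genes 49.9%). Removing CTCF windows gave 73.5% (KD, pSTAT3, all genes 51.9% and 55.9% in the 2 libraries). With 1 library left out the mean was 49.4% to 74.1% (KD) and 14.2% to 35.8% (control) with the BCL9 antibody, and 81.5% to 85.2% (KD) and 34.0% to 56.8% (control) with the pSTAT3 antibody. The share of members with both antibodies became 0.0% at equal length in both conditions (all genes 0.445% KD, 0.646% control). With at least 9 tags it was also 0.0% in both (all genes 1.41% KD, 0.699% control). At 50 bp overlap it was 0.0% in control cells (all genes 2.50%). With 1 control library left out it was 0.0% to 1.23% (all genes 0.995% to 2.26%). Leaving out a KD library was not run there, since 1 library cannot show recurrence. List length limits all counts from full lists.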
